A study of Homo sapiens with 8 samples.

Results

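Cadherins and the regulators of the epithelial-mesenchymal transition (EMT) were followed across RNA sequencing libraries of 2 human colorectal cancer lines. The set holds 10 genes, CDH1, CDH2, VIM, FN1, ZEB1, ZEB2, SNAI1, SNAI2, ESRP1 and ESRP2, taken by symbol from 40693 symbols in the deposited tables. Each of the 10 symbols stood in 1 row. SW480 (1 library) and SW620 (1 library) were untreated established lines, which the labels assign to Dukes' stages B and C. The other libraries were SW620 populations carrying a lentiviral U6 vector with a puromycin resistance and mCherry cassette, selected with puromycin. They expressed either a hairpin RNA against FOXA2, a pioneer transcription factor of endoderm (shFOXA2, 3 libraries), or a control hairpin (shNC, 3 libraries). The shFOXA2 titles point to the first of the 2 FOXA2 hairpins that the labels describe, so that a second hairpin sequence was not analysed here. Nothing in the labels ties the replicates to separate cultures, so that p-values measure only the spread between these libraries, which may be technical.

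In EMT, epithelial cells lose the adherens junction protein E-cadherin (CDH1) and gain N-cadherin (CDH2), the intermediate filament vimentin (VIM) and the matrix protein fibronectin (FN1). The zinc finger repressors SNAI1, SNAI2, ZEB1 and ZEB2 bind E-box sequences such as CAGGTG in epithelial promoters, that of CDH1 among them, and lower transcription there. The splicing factors ESRP1 and ESRP2 hold transcripts such as those of FGFR2, CD44 and CTNND1 in their epithelial forms. Colorectal tumour cells often hold both programmes in part.

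Total counts were 72323506 in SW480, 95935348 in SW620 and 7478411 to 13076566 in the 6 hairpin libraries. After scaling to the library total (CPM), 3 counts were worth 0.0313 CPM in SW620 and up to 0.401 CPM in the hairpin libraries. Of 8 markers of colorectal epithelium, 8 had at least 3 counts in every SW620 library and 7 in SW480, where KRT20 had 0. Levels per gene length are given as RPKM, reads per kilobase of gene scaled to the library total. FOXA2 itself fell, from a mean of 19.6 RPKM (SD 0.661, n = 3) under the control hairpin to 10.4 RPKM (SD 1.63, n = 3), a log2 fold change of -0.91 (SE 0.09, edgeR adjusted p = 6.88e-10). The library shFOXA2 replicate 1 stood apart. With a minimum of 30 counts, 62 genes reached 4-fold or more over the next highest hairpin library there. The same reading gave 14 genes for shNC replicate 1 and 0 for the remaining hairpin libraries. CDH2 and FN1 were among those 62 genes, and the results below that rest on this library are also given without it.

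The target of the FOXA2 hairpin is shown first, because a hairpin can also lower transcripts that match only part of it. The capitals mark the stretch that holds AACACGT and ACACGTA, 7-base sequences that had been picked in an earlier ranking on these same data and are not independent of them.
FOXA2 hairpin 1 target: gaacggcatgAACACGTAcat
All 10 members have an annotated 3' untranslated region (UTR), and 1 of them, CDH1, holds 1 of these sequences there. It does so in 1 of 7 annotated CDH1 transcripts, at position 22 of its 3' UTR, while the share over 19484 genes was 6.33%. The site is given with the match in capitals.
CDH1 site: acattctACACGTAgcagtga
CDH1 was not lower in shFOXA2 (values below). That value is per gene, while the site is in 1 of 7 transcripts, and action of the hairpin there was not tested.

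Promoter sequence was matched for 5 of the 10 members (CDH2, VIM, FN1, ZEB1 and ZEB2) from RefSeq on GRCh38.p14, from 250 bases before to 50 bases after each start. CDH1, SNAI1, SNAI2, ESRP1 and ESRP2 had no entry. Both strands were searched for the E-box CAGGTG, which SNAI and ZEB proteins bind, the forkhead sequence TGTTTAC, the AP-1 sequence TGANTCA and the cyclic AMP response element TGACGTCA. Over 35116 promoter windows of the same length, 20.6%, 3.42%, 7.71% and 1.85% held them. Shown are VIM, the member with the smallest p in the hairpin comparison, FN1, whose level moved with 1 library, and the ZEB1 window with the most E-boxes, with matches in capitals.
VIM promoter, plus strand, chr10:17227991-17228290: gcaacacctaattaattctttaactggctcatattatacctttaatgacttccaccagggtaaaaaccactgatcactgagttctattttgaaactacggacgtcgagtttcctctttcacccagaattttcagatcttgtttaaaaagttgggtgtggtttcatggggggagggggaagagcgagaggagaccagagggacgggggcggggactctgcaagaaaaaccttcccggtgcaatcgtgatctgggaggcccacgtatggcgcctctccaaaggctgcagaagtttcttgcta
FN1 promoter, minus strand, chr2:215436019-215436318: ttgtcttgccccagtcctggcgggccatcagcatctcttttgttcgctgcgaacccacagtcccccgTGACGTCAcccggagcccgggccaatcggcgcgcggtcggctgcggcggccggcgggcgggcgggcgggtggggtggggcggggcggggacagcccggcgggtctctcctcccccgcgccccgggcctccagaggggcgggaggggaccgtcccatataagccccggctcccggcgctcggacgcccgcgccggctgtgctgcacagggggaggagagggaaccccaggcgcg
ZEB1 promoter, plus strand, chr10:31318966-31319265: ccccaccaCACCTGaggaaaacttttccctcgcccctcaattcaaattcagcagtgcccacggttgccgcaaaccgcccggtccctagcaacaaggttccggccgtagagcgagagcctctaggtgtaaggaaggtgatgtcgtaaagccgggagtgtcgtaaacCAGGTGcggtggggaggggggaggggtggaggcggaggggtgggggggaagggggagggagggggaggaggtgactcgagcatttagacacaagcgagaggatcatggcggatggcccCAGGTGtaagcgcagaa
The VIM window held 0 of the 4 sequences, and the FN1 window held 1 response element, 183 bases before the start. The ZEB1 window held 3 E-boxes, at 242 and 85 bases before and 33 bases after the start, and another of the 7 ZEB1 windows held 2 adjoining forkhead matches. The CDH2 windows held 1 AP-1 sequence and the ZEB2 window 0 of the 4. These matches describe letters, and binding was not measured in these libraries.

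On GRCh38 (GENCODE v29), CDH1 lies on chromosome 16 from 68737225 to 68835548, and ESRP2 on the same chromosome from 68229111 to 68238102. CDH2 lies on chromosome 18 from 27950966 to 28177446. VIM (17228259 to 17237593) and ZEB1 (31318495 to 31529814) lie on chromosome 10, and ZEB2 (144364364 to 144524583) and FN1 (215360440 to 215436172) on chromosome 2. SNAI1 lies on chromosome 20 from 49982999 to 49988886. Several members share exon sequence with genes on the opposite strand: VIM with VIM-AS1 (641 bases) and with RP11-124N14.3 (619 bases), ZEB2 with ZEB2-AS1 (1299 bases, 0 counts in every library), ZEB1 with ZEB1-AS1 (366 bases, not analysed here), CDH1 with RP11-354M1.2 (347 bases), ESRP2 with NFATC3 (149 bases), and CDH2 with AC015933.2 (136 bases). The counts of RP11-354M1.2 were far below those of CDH1, at 30 to 32 in shNC and 23 to 41 in shFOXA2. ESRP2 also shares 35 bases with RP11-96D1.11 on its own strand, whose counts lay close to those of ESRP2 in the hairpin libraries, at 1099, 1090 and 1002 in shNC and 1293, 804 and 1082 in shFOXA2. The part of RP11-96D1.11 in the ESRP2 counts was not tested. The library kit is directional, but no source used here tells whether counting kept the strand, so reads of such partners may not be told apart.

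The FOXA2 hairpin was compared with the control hairpin to ask which of these genes moved when FOXA2 was lowered in SW620. VIM, SNAI2 and ESRP2 rose and ESRP1 fell. CDH1, ZEB1 and SNAI1 did not pass the test, CDH2 and FN1 were high in 1 library, and ZEB2 was nearly absent. Of the 10 members, 9 passed the filter on low counts, and 3 of these were called higher and 1 lower by the edgeR quasi-likelihood test with Benjamini-Hochberg adjustment at 0.05. The test called 39.0% of all 16100 genes, 19.2% higher and 19.8% lower, so that the members' share lay near the background. Without shFOXA2 replicate 1, 5 members were called higher and 1 lower, where the background was 35.3% (17.2% higher and 18.1% lower).

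**Figure D1:**
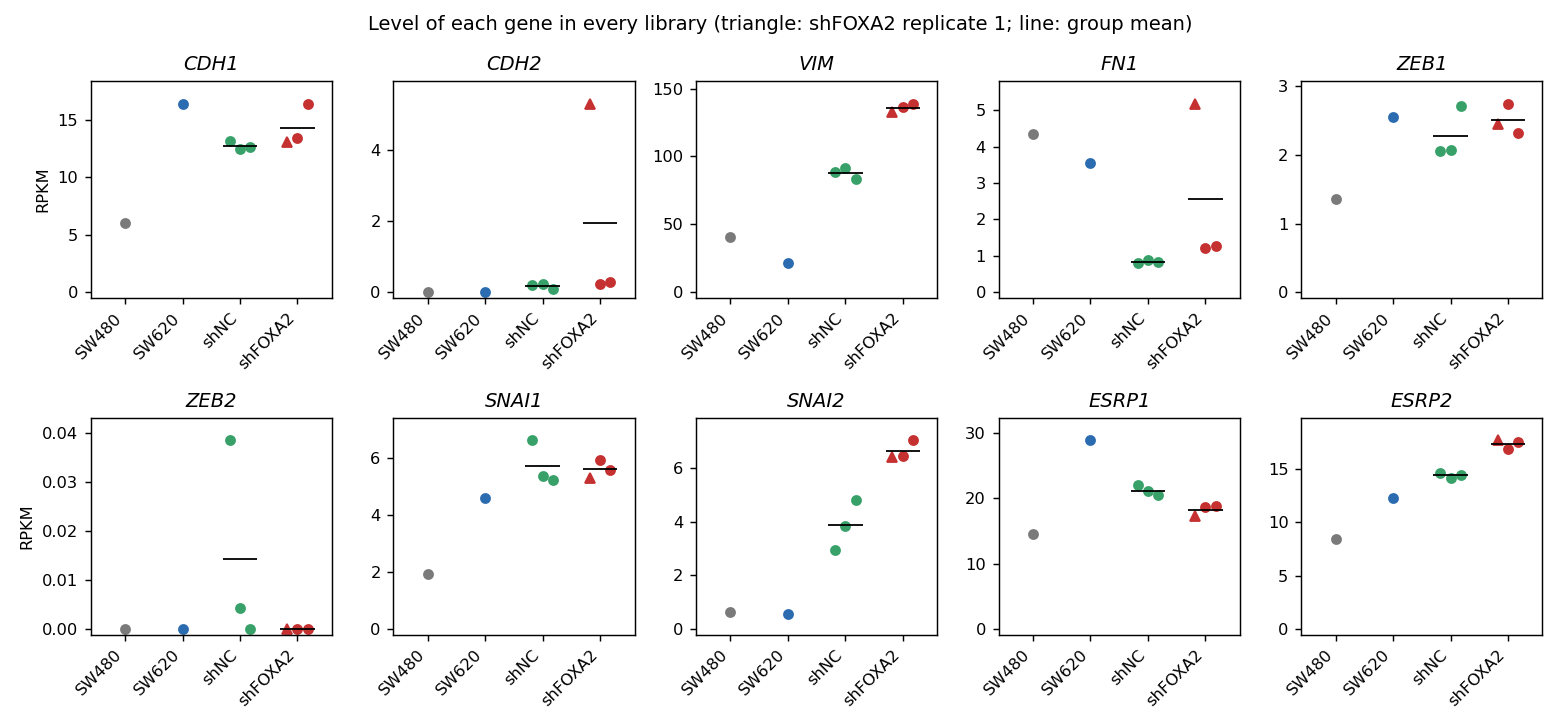
Level of each of the 10 genes in RPKM (vertical axes, linear) in every library, grouped as SW480, SW620, shNC and shFOXA2; points are libraries, the triangle is shFOXA2 replicate 1 and the line is a group mean. VIM and SNAI2 were higher in the 3 shFOXA2 libraries than in the 3 shNC libraries, and CDH2 and FN1 were far higher in shFOXA2 replicate 1 than in the other hairpin libraries.

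CDH1 encodes E-cadherin, the main cadherin of epithelial adherens junctions. Its level was 13.2, 12.5 and 12.6 RPKM in shNC replicates 1 to 3 and 13.1, 13.4 and 16.4 in shFOXA2 replicates 1 to 3. The groups overlapped, and only shFOXA2 replicate 3 lay clearly above the controls. The log2 fold change was 0.18 (SE 0.07), with an edgeR adjusted p of 0.0575. It was called higher without shFOXA2 replicate 1 (0.25, edgeR adjusted p = 0.00229) and fell to 0.06 (adjusted p = 0.487) without shFOXA2 replicate 3.

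CDH2 encodes N-cadherin, the cadherin of neural and mesenchymal cells. It had 13, 14 and 5 counts in shNC and 316, 9 and 14 counts in shFOXA2, against 2 in SW480 and 0 in SW620. In RPKM the shNC libraries held 0.201, 0.219 and 0.0832 and the shFOXA2 libraries 5.29, 0.243 and 0.282. The groups did not overlap, as for 24.2% of all genes tested in this direction, but shFOXA2 replicates 2 and 3 lay just above the highest control. The log2 fold change was 3.61 (SE 1.70, edgeR adjusted p = 0.187), and 0.65 (SE 0.48, adjusted p = 0.309) without shFOXA2 replicate 1. Counts of the overlapping AC015933.2 were nearly the same as those of CDH2 in every library, at 10, 14 and 5 in shNC and 315, 9 and 13 in shFOXA2. CDH1 exceeded CDH2 per length in every library, 57.1-fold to 151-fold in shNC, 55.2-fold and 58.0-fold in shFOXA2 replicates 2 and 3, and 2.47-fold in shFOXA2 replicate 1. By these values a reversal of the order of the cadherins was not seen in any of the 8 libraries. The part of AC015933.2 in the CDH2 counts was not tested.

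VIM encodes vimentin, the intermediate filament of mesenchymal cells. Its level was 88.8, 91.7 and 83.3 RPKM in shNC and 133, 136 and 139 RPKM in shFOXA2. All shFOXA2 libraries lay above all shNC libraries, as for 24.2% of all genes tested, and the spread within each group was small against the gap. VIM rose 1.56-fold, with a log2 fold change of 0.64 (SE 0.04, edgeR adjusted p = 4.83e-16). A two-sided exact permutation test on VIM alone gave p = 0.1, the smallest value that 3 against 3 libraries allow. The antisense gene VIM-AS1 had 2039, 1958 and 1665 counts in shNC and 2595, 1635 and 2168 in shFOXA2, and it was called higher as well (log2 fold change 0.56, edgeR adjusted p = 1.49e-12), as was RP11-124N14.3 (0.65). The part of these genes in the VIM counts was not tested.

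FN1 encodes fibronectin, which cells lay down as fibrils in the matrix. Its level was 0.795, 0.888 and 0.823 RPKM in shNC and 5.18, 1.20 and 1.26 RPKM in shFOXA2. The groups did not overlap, as for 24.2% of all genes tested in this direction. The library shFOXA2 replicate 1 held more than 4 times the level of the other shFOXA2 libraries. With all libraries the log2 fold change was 1.67 (SE 0.75, edgeR adjusted p = 0.171). Without shFOXA2 replicate 1 it was smaller but called, at 0.58 (SE 0.12, adjusted p = 5.47e-05). Limma-voom on all 6 libraries also called it (1.41, adjusted p = 0.0263).

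SNAI1 (Snail) and SNAI2 (Slug) are related repressors of CDH1. SNAI2 lies on chromosome 8 from 48917604 to 48921740. SNAI2 was at 2.95, 3.86 and 4.80 RPKM in shNC and 6.43, 6.45 and 7.05 RPKM in shFOXA2. All shFOXA2 libraries lay above all shNC libraries, as for 24.2% of all genes tested, and the controls were spread more widely. SNAI2 rose 1.74-fold, with a log2 fold change of 0.80 (SE 0.13, edgeR adjusted p = 5.35e-06). SNAI1 was at 6.62, 5.36 and 5.23 RPKM in shNC and 5.31, 5.95 and 5.57 in shFOXA2, with groups that overlapped. Its log2 fold change was -0.03 (SE 0.14, edgeR adjusted p = 0.889). The ratio of SNAI2 to SNAI1 in RPKM was 0.445, 0.720 and 0.918 in shNC and 1.21, 1.08 and 1.27 in shFOXA2, so SNAI2 stood above SNAI1 in each shFOXA2 library and below it in each shNC library.

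ZEB1 and ZEB2 are large zinc finger and homeodomain repressors of epithelial genes. ZEB1 was at 2.05, 2.08 and 2.71 RPKM in shNC and 2.46, 2.75 and 2.32 in shFOXA2. The groups overlapped, and the log2 fold change was 0.15 (SE 0.10, edgeR adjusted p = 0.275). It was 0.28 (edgeR adjusted p = 0.0512) without shNC replicate 3 and 0.08 without shNC replicate 1, shNC replicate 2 or shFOXA2 replicate 2, and was not called in any of these. ZEB2 had 9, 1 and 0 counts in shNC and 0 counts in each shFOXA2 library and in both untreated lines. It did not pass the filter on low counts, and all values but 1 lay below the limit of 3 counts. Without a filter edgeR called it lower (adjusted p = 0.0321), a call that rests on the 9 counts of shNC replicate 1.

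ESRP1 and ESRP2, paralogous epithelial splicing factors, moved in opposite directions. ESRP1 lies on chromosome 8 from 94641074 to 94707466. ESRP1 was at 22.0, 21.1 and 20.5 RPKM in shNC and 17.2, 18.7 and 18.8 RPKM in shFOXA2. ESRP2 was at 14.7, 14.2 and 14.4 RPKM in shNC and 17.7, 16.9 and 17.5 RPKM in shFOXA2. Neither gene's groups overlapped, as for 48.7% of all genes tested (24.2% higher and 24.5% lower in shFOXA2). ESRP1 fell by 0.21 on the log2 scale (SE 0.05, edgeR adjusted p = 0.000958), and ESRP2 rose by 0.28 (SE 0.05, adjusted p = 1.13e-05). With both replicates numbered 1 left out, an alternative added after the data were seen, the ESRP1 change was -0.13 and was not called (edgeR adjusted p = 0.0906). The ratio of ESRP1 to ESRP2 in RPKM was 1.502, 1.488 and 1.418 in shNC and 0.974, 1.11 and 1.07 in shFOXA2, with no overlap. That follows from the lack of overlap in each gene, in opposite directions. NFATC3, which shares exon bases with ESRP2 on the opposite strand, had 2064, 1938 and 1852 counts in shNC and 2192, 1370 and 1835 in shFOXA2, and was called higher by a similar amount (log2 fold change 0.26, edgeR adjusted p = 6.59e-06). The part of NFATC3 in the ESRP2 counts was not tested.

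**Figure D2:**
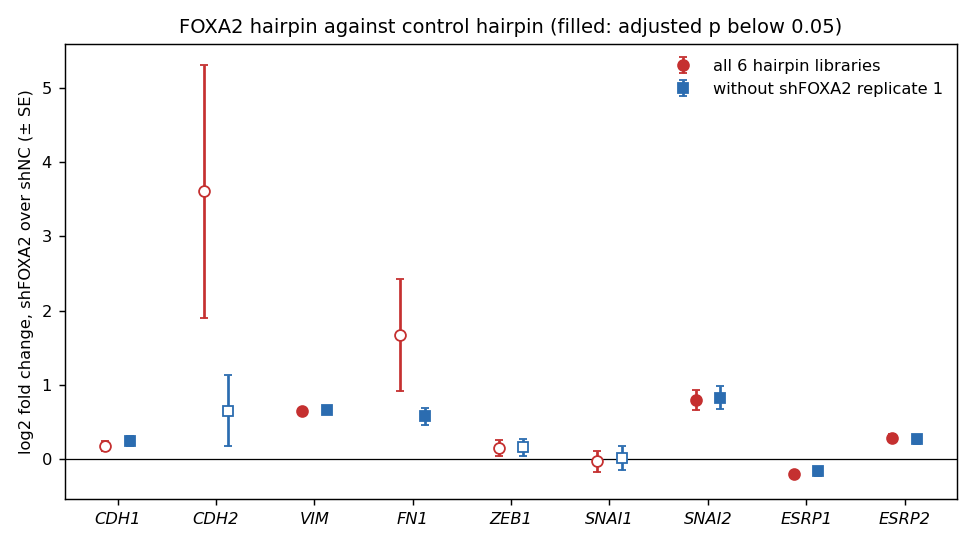
Log2 fold change of shFOXA2 over shNC with its SE (vertical axis) for the 9 tested genes, from all 6 hairpin libraries (circles) and without shFOXA2 replicate 1 (squares); filled symbols passed an adjusted p of 0.05. Without that library CDH2 moved from 3.61 to 0.65 and FN1 from 1.67 to 0.58, while VIM, SNAI2, ESRP1 and ESRP2 kept their direction and call.

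Markers of other cell types were read beside these results. Of 8 fibroblast markers, 3 or 4 had at least 3 counts in each hairpin library, with a summed level of 11.1 to 13.3 CPM in shNC and 15.8 to 21.5 CPM in shFOXA2. The fibroblast collagens COL1A2 and COL3A1 had 0 counts in all 8 libraries, and DCN had at most 1. LUM had 107 to 120 counts in shNC and 93 to 143 in shFOXA2. COL1A1 had 25 to 29 counts in shNC and 22 to 75 in shFOXA2, and was called higher (log2 fold change 1.06, edgeR adjusted p = 0.00045). PDGFRB had 40 counts in shFOXA2 replicate 1 and 4 to 12 in the other hairpin libraries. Of 5 endothelial markers, 1 or 2 had at least 3 counts in each hairpin library, and their sum was 0.692 to 3.59 CPM in shNC and 0.797 to 1.56 CPM in shFOXA2. Of 8 leukocyte markers, 5 had at least 3 counts in each hairpin library. The 5 were PTPRC (9 to 42 counts in the hairpin libraries), CD4 (49 to 102), CD14 (6 to 15), CD68 (95 to 199) and LYZ (59 to 114). MS4A1 was at 0 in every library and CD3E at 0 in the 6 hairpin libraries. The 8 markers summed to 22.4 to 28.2 CPM in shNC and 30.3 to 38.05 CPM in shFOXA2. Of 14 hepatocyte markers, 7 to 9 had at least 3 counts in each hairpin library. They summed to 191 CPM in shFOXA2 replicate 1, against 28.2 to 29.3 CPM in the other shFOXA2 libraries and 27.4 to 29.6 CPM in shNC. APOB (1882 counts against 41 to 65), APOA2 (144 against 4 to 7) and APOA1 (46 against 1 to 5) were high in that library. ALB was not (13 counts against 9 to 43), and APOC3, FGB and TTR had 0 counts in all libraries. The part of these RNAs in the CDH2 and FN1 values was not tested. In bulk RNA, fewer cells of a type and less RNA per cell cannot be told apart.

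The untreated lines were set side by side to ask how the set differs between SW480 and SW620, with 1 library each and no test. Folds are ratios of CPM scaled by trimmed mean of M-values (TMM), with exact 95% intervals that cover counting error only. SW620 held more CDH1, SNAI1, ESRP1, ZEB1 and ESRP2, and SW480 held more VIM. CDH1 had 6.06 RPKM in SW480 and 16.4 in SW620, 2.61-fold higher in SW620 (2.50 to 2.72). ESRP1 had 14.6 and 28.9 RPKM, 1.92-fold higher in SW620 (1.86 to 1.98), and ESRP2 had 8.41 and 12.3, 1.41-fold higher (1.36 to 1.47). VIM had 40.6 and 21.8 RPKM, 1.93-fold higher in SW480 (1.88 to 1.98). The epithelial members CDH1, ESRP1 and ESRP2 were thus higher and VIM lower in the SW620 library. This does not extend to epithelial genes at large. Of 17 epithelial surface and junction genes outside the set, 4 were at least 4-fold higher in SW480 and 0 in SW620.

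The repressors did not follow VIM between the lines. ZEB1 had 1.35 RPKM in SW480 and 2.55 in SW620, 1.82-fold higher in SW620 (1.68 to 1.97). SNAI1 had 1.94 and 4.60 RPKM, 2.29-fold higher in SW620 (1.97 to 2.66). SNAI2 was low in both, at 106 and 119 counts, and its ratio of 1.22 in favour of SW480 had an interval that includes no difference (0.932 to 1.60). FN1 was at 4.33 RPKM in SW480 and 3.54 in SW620, 1.27-fold higher in SW480 (1.22 to 1.31). CDH2 (2 and 0 counts) and ZEB2 (0 in both) were under the limit of 3 counts in both lines. With 1 CPM added to each library, 0 members were 4-fold apart, where the background was 5.14% of 21343 genes. CDH1 was at least 2-fold apart by this measure, as were 16.8% of genes (7.99% higher in SW620 and 8.85% in SW480). SNAI1 lay at this limit, with a log2 ratio of 0.99 that became 1.03 with total counts and 1.17 with 0.1 CPM added.

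**Figure D3:**
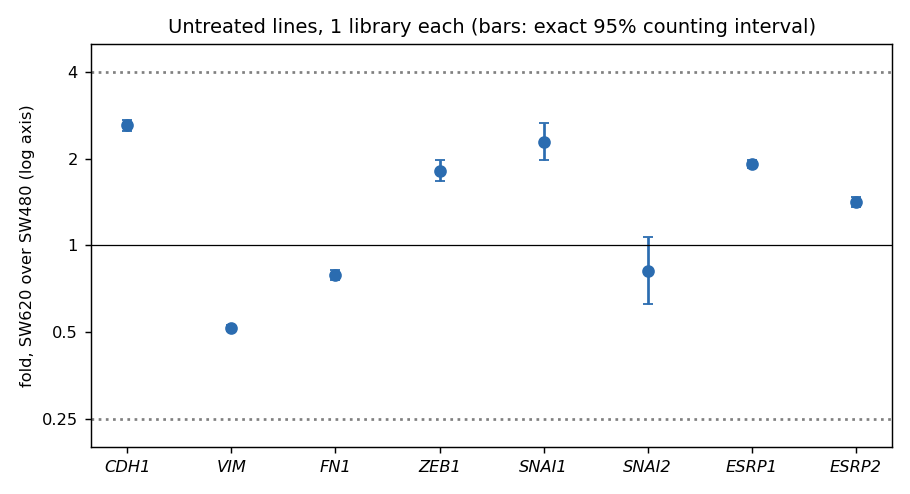
Fold of SW620 over SW480 (log axis) for the 8 genes with at least 20 counts in 1 of the lines, with exact 95% counting intervals; dotted lines mark 4-fold. CDH1 was highest in SW620 at 2.61-fold and VIM was lowest, at 1.93-fold higher in SW480.

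The control hairpin population also differed from untreated SW620 in this set. VIM was 3.77-fold to 4.17-fold higher in the 3 shNC libraries than in untreated SW620, and SNAI2 5.52-fold to 8.72-fold higher. FN1 was 4.03-fold to 4.38-fold lower in shNC. With 1 CPM added, these were the members whose 3 shNC libraries all lay at least 2-fold from SW620, where the background was 2.25% of genes above and 3.18% below. CDH1 (1.22-fold to 1.32-fold lower in shNC) and ESRP1 (1.29-fold to 1.43-fold lower) differed less. The untreated library lacked infection and selection, was sequenced more deeply and held 11.1% mitochondrial counts against 4.46% to 4.82%, so these differences cannot be told apart and no test was made. The rise of VIM and SNAI2 under the FOXA2 hairpin was therefore measured from control levels above those of the untreated line.

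Within each library the levels per length had a similar order. VIM had the highest RPKM of the set in 7 of 8 libraries, and in untreated SW620 ESRP1 stood above it. ESRP1, ESRP2 and CDH1 took the next places in that order in SW480, the 3 shNC libraries and shFOXA2 replicates 2 and 3, and in shFOXA2 replicate 1 ESRP2 stood just above ESRP1 (17.7 and 17.2 RPKM). The SNAI factors, ZEB1 and FN1 followed at a lower level, and CDH2 and ZEB2 were last in every library except shFOXA2 replicate 1, where CDH2 stood above FN1 and ZEB1. The ratio of VIM to CDH1 was 6.71 in SW480, 1.33 in SW620, 6.62 to 7.35 in shNC and 8.47 to 10.2 in shFOXA2. The shFOXA2 and shNC ranges of this ratio did not overlap. Neither did the groups of 48.7% of all single genes tested, but no such share was computed for ratios.

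**Figure D4:**
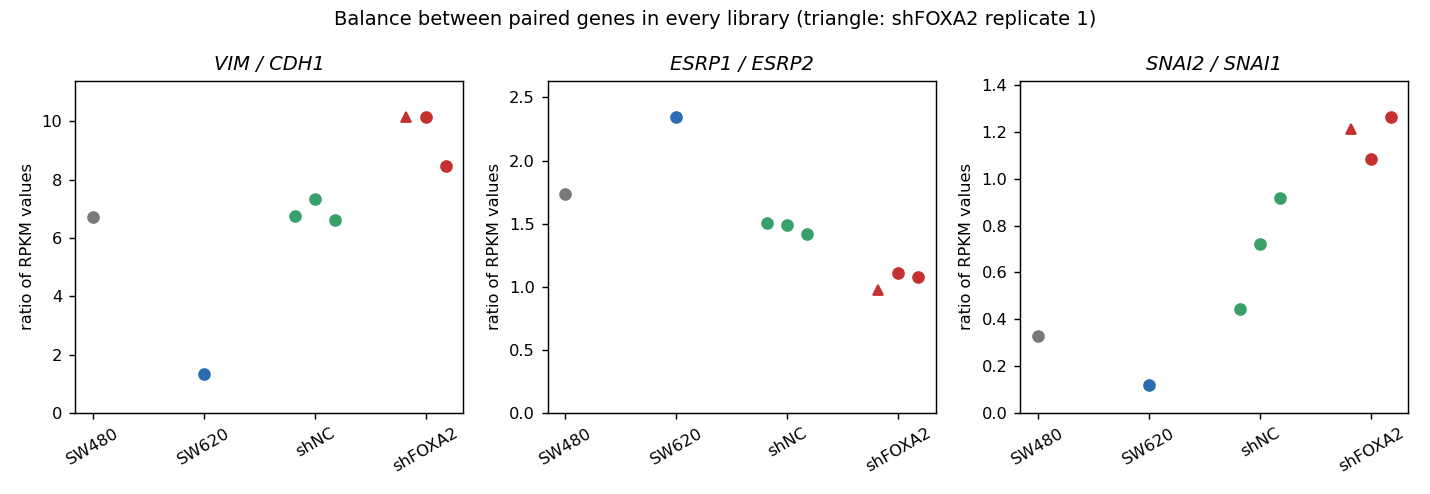
Ratios of RPKM values of VIM to CDH1, ESRP1 to ESRP2 and SNAI2 to SNAI1 in every library (linear axes from 0; points are libraries and the triangle is shFOXA2 replicate 1). For each ratio the 3 shFOXA2 libraries lay apart from the 3 shNC libraries. For ESRP1 to ESRP2 this follows from the single genes, which each lay apart in opposite directions. Of all single genes tested, 48.7% lay apart, and no such share was computed for ratios. Untreated SW620 had the lowest VIM to CDH1 ratio, 1.33.

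The genes most like a member over the 8 libraries were named by Pearson's r of log2(CPM + 1) among 12855 genes, as a description. For VIM they were its overlapping antisense genes RP11-124N14.3 (0.997) and VIM-AS1 (0.993), which may share its reads, and XPO5 (0.993). For CDH1 they were a gene known only by a clone name (0.989), ZFAND4 (0.989) and USP54 (0.986). CDH2, the member with the widest range, was most like GK (0.984), BNIP3 (0.981) and EDEM2 (0.980) among these genes. Its overlapping antisense gene AC015933.2, whose counts were nearly those of CDH2, was too low for this ranking, which required a mean log2 CPM of 2. The points share the deep untreated libraries, and for CDH2 the pattern is that of shFOXA2 replicate 1.

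Other genes of the pathway were read from 8 lists, beside which all genes had a median log2 fold change of 0.01 in the hairpin comparison, with 39.0% called (19.2% higher and 19.8% lower). Of 16 other transcription factors that promote the mesenchymal state, 7 were tested, with 1 higher and 3 lower (median -0.20, or -0.04 without shFOXA2 replicate 3). With any 1 hairpin library left out, 1 was higher and 2 were lower. HMGA2, an architectural chromatin protein, rose by 1.09 on the log2 scale (SE 0.07, edgeR adjusted p = 2.70e-14), and TCF3, the E-box protein E2A, fell by 1.04 (SE 0.05, adjusted p = 1.74e-21). TWIST1 and TWIST2 were at or near 0 in every library. Of 10 transcription factors that hold the epithelial state, 7 were tested, with 4 higher and 1 lower (median 0.25), or 2 lower without shNC replicate 3. The intestinal homeobox factor CDX2 rose by 0.69 and ELF3 fell by 0.23, while GRHL2, a keeper of the epithelial state in many tissues, was nearly absent, at up to 0.0147 RPKM as a group mean.

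Catenins and other cadherins had 4 higher and 0 lower of 8 tested (median 0.14), and 2 higher without shFOXA2 replicate 1, 2 or 3 or shNC replicate 3. CTNNB1, the beta-catenin that links cadherins to actin and carries Wnt signals, rose from 167 ± 2.04 to 200.2 ± 3.40 RPKM (n = 3 each). CDH17, the liver-intestine cadherin, rose by 0.41 (edgeR adjusted p = 0.0393), a call lost when any 1 hairpin library other than shNC replicate 1 was left out (adjusted p = 0.0567 to 0.146). Epithelial surface and junction genes had 1 higher and 5 lower of 15 tested (median -0.06), or 2 higher and 5 lower without shNC replicate 1 (median -0.02). The tricellular junction gene MARVELD2 rose by 0.56, and its relative MARVELD3 fell by 0.79. The claudins CLDN4 (-0.34) and CLDN7 (-0.70) and the adhesion protein EPCAM (-0.13) also fell, EPCAM without a call when shFOXA2 replicate 1 was left out (edgeR adjusted p = 0.0781).

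Mesenchymal matrix and cytoskeleton genes had 7 higher and 3 lower of 16 tested, with a median of 0.66, or 0.41 without shFOXA2 replicate 1, or 0.24 with both replicates numbered 1 left out. Tenascin C (TNC), a matrix glycoprotein, rose from 111 ± 7.83 to 265 ± 17.4 RPKM (n = 3 each), and the hyaluronan receptor CD44 from 1.76 ± 0.0893 to 4.03 ± 0.267. The integrin subunit ITGA5, a fibronectin receptor chain, rose by 0.65 and the receptor kinase AXL by 0.68. The actin-binding TAGLN fell by 1.04, S100A4 by 1.01 and TGFBI by 0.43. The counts of 7 and 3 were the same without shFOXA2 replicate 1.

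Splicing factors that act with or against the ESRP proteins had 4 higher and 0 lower of 10 tested (median 0.07), or 3 higher without shFOXA2 replicate 1. QKI, an RNA-binding protein of mesenchymal splicing, rose by 0.74 (SE 0.06, edgeR adjusted p = 5.55e-14), and MBNL2 rose by 0.30. Genes spliced under ESRP control had 5 higher and 0 lower of 7 (median 0.22), CD44 and the actin regulator ENAH (0.38) among them. That count was 4 without shFOXA2 replicate 1, 2 or 3 or shNC replicate 3, and the median was 0.14 without shNC replicate 3. These are counts per gene and do not show which isoform was made. Corepressors and turnover factors of the SNAI and ZEB proteins had 3 higher and 7 lower of 14 (median -0.14), or 2 and 5 without shFOXA2 replicate 1, 4 and 5 without shNC replicate 1 (median -0.04), and 3 and 4 with both left out. The histone demethylase KDM1A, a partner of SNAI1, rose by 0.49, and FBXL14, a ubiquitin ligase subunit that marks SNAI1 for destruction, fell by 0.51.

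**Figure D5:**
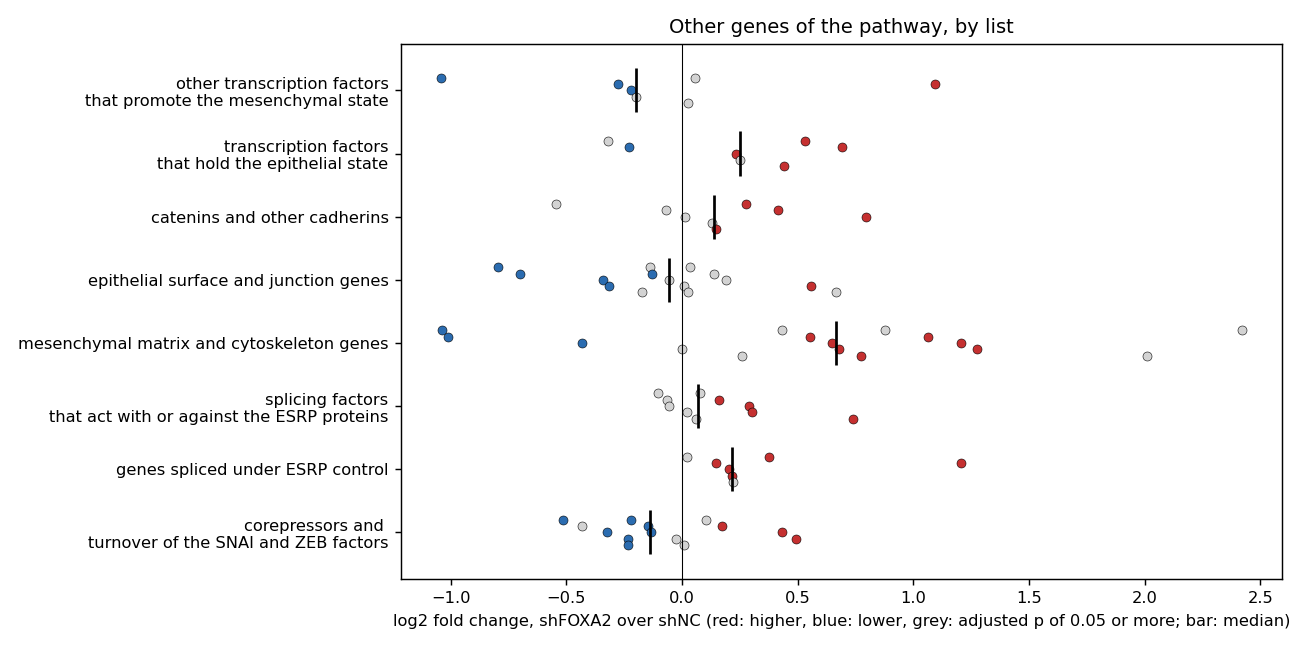
Log2 fold change of shFOXA2 over shNC (horizontal axis) for each tested gene of the 8 lists; red genes were called higher, blue genes lower and grey genes not called, and the bar is the list's median. The mesenchymal matrix and cytoskeleton list has the highest median, 0.66, and members on both sides of 0. With both replicates numbered 1 left out its median was 0.24, below the 0.28 of genes spliced under ESRP control.

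Between the untreated lines the lists also held large differences, without a test. Of the mesenchymal factors, SOX4 was 8.34-fold higher in SW620 and PRRX1 69.2-fold higher in SW480 (37.3 to 145). Of the epithelial factors, EHF was 9.41-fold higher in SW620 and CDX2 11.2-fold higher in SW480. CDH3, the P-cadherin gene, was 147-fold higher in SW480 (97.5 to 232), while CDH4 was 6.92-fold higher in SW620. In the matrix list TNC was 36.1-fold higher in SW620 and CD44 8.98-fold higher in SW480, and the splicing factor RBM47 was 9.28-fold higher in SW620. Smaller differences were read for KDM1A (2.19-fold), MARVELD2 (2.07-fold) and CTNND1 (1.41-fold), higher in SW620, and for FBXL14 (1.72-fold) and SRSF1 (1.09-fold), higher in SW480. Epithelial surface and junction genes had 4 of 17 at least 4-fold higher in SW480 and 0 in SW620, against a background of 2.87% and 2.27% of all genes.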

How the data were processed

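Total RNA of 8 samples was sequenced from directional libraries, per the labels' protocols. The submitters' processing notes name HOMER and hg19 without a role, and no aligner, counting tool or annotation is recorded in the labels. The deposited tables give, for 42713 genes, raw counts, a listed length and RPKM. The deposited RPKM could be recomputed from count, length and table total (100% of values above 20 counts, tolerance 1e-04). For the 256 repeated symbols the row with the highest summed count was used. Positions and sequences are from GRCh38. Gene positions, overlapping genes and 3' UTRs were matched by Ensembl gene identifier, and promoters by symbol. RPKM served for levels and ratios between genes, and counts for all tests.

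The 3 shFOXA2 and 3 shNC libraries were compared in R 4.3.3 with edgeR 4.0.16: TMM scaling, its default filter and a robust two-sided quasi-likelihood test, with Benjamini-Hochberg adjustment over all 16100 genes. The SE is the log2 fold change over the square root of F. For SW480 and SW620 no test was made: ratios used 1 CPM added, a minimum of 20 counts in 1 of the lines and a limit of 4-fold. Levels over all 8 libraries and the ratios of shNC to untreated SW620 used TMM over 8 libraries. Chi-square per degree of freedom between replicates 2 and 3 was 1.62 in shFOXA2 and 1.70 in shNC. For pairs with replicate 1 it was 3.70 to 4.27. All libraries were kept as separate replicates, but these values do not show that they came from independent cultures. On simulated data for the hairpin comparison (15797 genes), edgeR called 20, 39, 50 and 50 of 50 genes changed 1.25-fold, 1.5-fold, 2-fold and 4-fold, and 15 unchanged genes. The simulation gave every gene the same coefficient of variation between replicates (6.593%) and held no library that stands apart. It therefore does not describe genes such as CDH2 and FN1, which were uncalled at 12.2-fold and 3.18-fold. Alternatives used DESeq2 1.42.0, limma 3.58.1 and Python 3.11.15. Members and lists were chosen with earlier results of these data known. Named genes were the members, FOXA2 and, per list, the largest called rise and fall above a mean log2 CPM of 1, and the highest fold in each untreated line with at least 100 counts. The 3 genes most like CDH1, VIM and the member of widest range came from genes whose mean log2 CPM reached 2. One named gene is not reported here. TWIST1, TWIST2, GRHL2, CTNNB1, CLDN4, CLDN7, EPCAM, ITGA5, AXL, S100A4, TGFBI, MBNL2 and ENAH were named after their values were seen.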

Additional observations from a re-analysis of the deposited data

How the results depend on the processing

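In the hairpin comparison VIM, SNAI2 and ESRP2 kept their direction and call under every alternative run (other scaling, filters, tests, the 0.01 threshold, summed symbols, the replicate block, and each library or both replicates numbered 1 left out), and ESRP1 under all but the last (-0.13, adjusted p = 0.0906). CDH1 was called higher without a filter (0.15, adjusted p = 0.0288), without shFOXA2 replicate 1, and with both replicates numbered 1 left out (0.29, adjusted p = 6.22e-05). FN1 was called by limma-voom, without shFOXA2 replicate 1, and with both left out (0.55, adjusted p = 8.06e-05). SNAI1 changed sign without a call without shFOXA2 replicate 1 (0.0087), without shNC replicate 1 (0.0883) and with both left out (0.14), and ranged from -0.10 to 0.09 with 1 library left out. The number of members called was 4 to 6, and of all genes 5298 to 5872 with 1 library left out. The split of all calls was 2699 higher and 3497 lower without a filter and 2896 and 3317 with total counts. Shared replicate numbers did not pair the libraries (correlations of deviations for equal numbers 0.0063, -0.05 and 0.0042). With the replicate block 6140 genes and 4 members were called. Between the untreated lines, 2539 genes were 4-fold apart with 0.1 CPM added and 3595 were 2-fold apart, with 1 member, CDH1, SNAI1 passing 2-fold only with total counts (1.03) or 0.1 CPM added (1.17). ZEB2 lay under 3 counts in all libraries but shNC replicate 1, and CDH2 did so in both untreated lines. The causes were not tested.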
